A study of Mus musculus with 8 samples.

Results

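The genes described here are 10 genes of neutrophil granule formation: *Mpo*, *Elane*, *Prtn3* and *Ctsg* of the primary granules, *Ltf*, *Camp*, *Ngp* and *Lcn2* of the secondary granules, the promyelocyte membrane protein gene *Ms4a3*, and the neutrophil collagenase gene *Mmp8*. They were found by gene name among 47493 genes of the deposited expression table. Values are in FPKM, a fragment count corrected for the length of the transcript and the depth of the library. All 10 had a mean of at least 1 FPKM over the 8 libraries, *Mmp8* only through the enriched ones. RNA came from 4 female C57BL/6 mice, 6 to 8 weeks old, all treated alike with 200000 B16F10 melanoma cells on day 0, cyclophosphamide at 300 mg/kg on day 3, 2000000 Thy1.1 Pmel-1 T cells on day 5 with 3 daily injections of 10000 IU IL-2, and 200 μg anti-CD4 antibody (clone GK1.5) weekly for 3 weeks from day 10. On day 25, endogenous CD8+ T cells lacking Thy1.1 were purified from inguinal lymph nodes and spleen of each mouse, cells with high IL-18Rα (IL-18Rαhi) were retained on a magnetic column, and the cells that passed through served as the control. Libraries were paired by the number in their titles, which was taken as the mouse. The 8 libraries so formed 4 pairs of 1 flow-through and 1 IL-18Rαhi-enriched library, and the numbers 1 to 4 name the mice.

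Neutrophils build their granules in waves as they mature in bone marrow, and under stress also in the spleen. Primary granules are filled at the promyelocyte stage with myeloperoxidase (*Mpo*) and the serine proteases elastase (*Elane*), proteinase 3 (*Prtn3*) and cathepsin G (*Ctsg*). Secondary granules follow at the myelocyte and metamyelocyte stages with lactoferrin (*Ltf*), cathelicidin (*Camp*), neutrophilic granule protein (*Ngp*) and lipocalin 2 (*Lcn2*), and transcription of each set largely ends when its stage has passed. These are not typical products of T cells, and the CD8 isolation used here removed other cells by negative selection.

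The libraries held an estimated 14300000 to 18000000 fragments, and 11706 to 12288 genes per library reached 1 FPKM. *Il18r1*, the selected receptor, averaged 30.6 ± 6.96 FPKM in flow-through and 110.8 ± 3.87 FPKM in enriched libraries (mean ± SD, n = 4), with no overlap. The 8 CD8 T-cell identity genes summed to 2144 to 2724 FPKM in 7 libraries and to 1337 FPKM in the flow-through of mouse 1. With limma, 1720 of 12166 tested genes had a higher and 1664 a lower level after enrichment (adjusted p under 0.05), and scaling to the T-cell genes turned these counts to 522 and 927.

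Some members are neighbors in the genome (mm10 coordinates, GENCODE M21), and all are protein-coding. *Prtn3* (chr10:79874476-79883174, plus strand) lies 3072 bases before *Elane* (chr10:79886247-79888215, plus strand). *Camp* (chr9:109847379-109849617, minus strand), *Ngp* (chr9:110419747-110423012, plus strand) and *Ltf* (chr9:111019271-111042767, plus strand) share a stretch of 1195389 bases. *Mpo* is at chr11:87793581-87804413, *Ctsg* at chr14:56099881-56102574, *Ms4a3* at chr19:11629496-11640851, *Lcn2* at chr2:32384633-32388252 and *Mmp8* at chr9:7558456-7568485. An antisense gene, *Gm11505*, lies within *Mpo*, and *Plppr3* overlaps *Prtn3* on the other strand, so reads of these pairs may have been shared between them. *Gm11505* averaged 9.01 ± 6.11 and 8.54 ± 6.40 FPKM in flow-through and enriched libraries.

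Of the members, upstream sequences of 2 primary and 2 secondary granule genes alone are shown, as examples. These sequences bear on no difference between libraries. They were taken from RefSeq (GRCm38.p6), run 5′ to 3′ on the strand of the gene and end before its annotated start. Capitals mark matches on either strand to GAGGAA, the core of a PU.1-type motif, or to TTGCNNAA, a C/EBP-type motif, which do not overlap one another here.
*Elane*, chr10:79886062-79886246, plus strand: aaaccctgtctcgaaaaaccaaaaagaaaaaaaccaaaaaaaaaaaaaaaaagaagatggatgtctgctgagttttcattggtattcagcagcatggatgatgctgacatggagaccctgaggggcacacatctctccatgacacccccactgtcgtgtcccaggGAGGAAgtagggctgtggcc
*Ctsg*, chr14:56102575-56102824, minus strand: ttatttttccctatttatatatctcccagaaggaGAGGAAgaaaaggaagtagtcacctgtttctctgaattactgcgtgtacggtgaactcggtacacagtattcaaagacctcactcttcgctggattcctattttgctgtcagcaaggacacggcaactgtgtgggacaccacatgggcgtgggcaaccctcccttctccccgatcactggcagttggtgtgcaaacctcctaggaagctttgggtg
*Ltf*, chr9:111019042-111019270, plus strand: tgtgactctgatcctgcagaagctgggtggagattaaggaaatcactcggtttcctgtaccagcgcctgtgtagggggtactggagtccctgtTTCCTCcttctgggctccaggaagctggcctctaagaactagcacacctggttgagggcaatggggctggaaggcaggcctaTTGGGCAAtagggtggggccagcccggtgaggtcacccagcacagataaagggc
*Ngp*, chr9:110419558-110419746, plus strand: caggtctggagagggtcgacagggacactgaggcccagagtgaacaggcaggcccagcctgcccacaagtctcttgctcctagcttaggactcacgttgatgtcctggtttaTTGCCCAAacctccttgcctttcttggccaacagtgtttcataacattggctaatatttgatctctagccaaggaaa

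Over the promoter windows of 300 bases (250 before and 50 after the RefSeq start), the PU.1-type letters were found in all 4 primary and in 2 of 4 secondary granule genes, against 28.3% of 32851 mouse promoters. The C/EBP-type letters were found in 0 of 4 primary and 3 of 4 secondary granule genes, against 10.8% of promoters. *Camp* held neither, while *Ms4a3* and *Mmp8* held both. The windows of *Prtn3* and *Lcn2* lie wholly inside the GENCODE genes given above, since RefSeq places their starts elsewhere. These matches are descriptions of short windows and identify no bound site.

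Primary granule genes were abundant in both fractions. *Mpo*, the peroxidase that makes hypochlorous acid, was at 252, 1394, 404 and 669 FPKM in flow-through libraries of mice 1 to 4 and at 203, 1175, 354 and 533 FPKM in their enriched libraries. By mean FPKM its rank among the 12166 genes was 135 for flow-through and 165 for enriched libraries. *Elane*, the neutrophil elastase gene, was at 111, 726, 206 and 319 FPKM in flow-through libraries and at 139.6, 834, 235 and 385 FPKM in enriched libraries. In both fractions mouse 2 was highest and mouse 1 lowest, and the ranges of the fractions overlapped almost entirely. Bulk values of this kind cannot tell fewer cells of a type from less RNA per cell.

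*Prtn3*, which encodes the protease next to *Elane*, was at 151, 855, 239 and 350.2 FPKM in flow-through libraries and at 142, 856, 259 and 342 FPKM in enriched libraries. *Ctsg*, the chymotrypsin-like protease of the same granule, was at 53.2, 295, 92.7 and 129 FPKM in flow-through libraries and at 56.8, 320.5, 90.8 and 125 FPKM in enriched libraries. In no mouse did the 2 fractions differ by more than 0.12 on the log2 scale for either gene. *Ms4a3*, which is switched on in granulocyte and monocyte precursors, was at 20.96, 154, 44.1 and 65.5 FPKM in flow-through libraries and at 25.9, 156, 49.8 and 68.7 FPKM in enriched libraries. It followed the same order of mice, 2 over 4 over 3 over 1, in both fractions. This order was not particular to these genes, as the marker sums of some other myeloid cells below had it too.

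Secondary granule genes were far lower, and in the flow-through they ordered the mice differently from the primary granule genes. *Ltf*, whose iron-binding product marks secondary granules, was at 1.25, 1.51, 7.505 and 4.64 FPKM in flow-through libraries and at 1.33, 1.64, 3.09 and 3.03 FPKM in enriched libraries. Mice 3 and 4 were highest in both fractions, and mouse 2, which led every primary granule gene, stayed close to mouse 1. *Camp*, the precursor of the mouse antimicrobial peptide CRAMP, was at 0.705, 2.89, 10.8 and 6.84 FPKM in flow-through libraries and at 1.36, 18.6, 6.28 and 7.73 FPKM in enriched libraries. Mouse 3 was highest in the flow-through and mouse 2 in the enriched fraction.

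*Ngp*, a cathelicidin-related gene, was at 2.69, 5.68, 25.0 and 15.8 FPKM in flow-through libraries and at 3.06, 14.1, 9.46 and 11.5 FPKM in enriched libraries. *Lcn2*, which encodes a siderophore-binding protein, was at 1.83, 9.49, 12.8 and 7.72 FPKM in flow-through libraries and at 2.32, 14.9, 6.71 and 8.75 FPKM in enriched libraries. For both genes mouse 3 led the flow-through and mouse 2 the enriched fraction, as for *Camp*, and in the enriched libraries all 3 genes followed the order of mice of the primary granule genes. The low values rested on few reads: with the estimated depth, *Camp* had about 8.8 fragments in the flow-through of mouse 1, 39 in that of mouse 2 and 240 in the enriched fraction of mouse 2. Each mouse gave 1 library per fraction, so a change of rank within 1 mouse has no replicate check.

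*Mmp8*, the neutrophil collagenase of the later granules, was the lowest member at 0.407, 1.39, 0.657 and 0.779 FPKM in flow-through libraries and at 0.977, 3.78, 1.34 and 2.38 FPKM in enriched libraries. It was higher in the enriched fraction of every mouse, by 2.04 to 3.05 times in FPKM, and it kept the order of mice of the primary granule genes. The estimated number of fragments behind its values was 16 to 59 per flow-through library and 43 to 160 per enriched library.

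**Figure D1:**
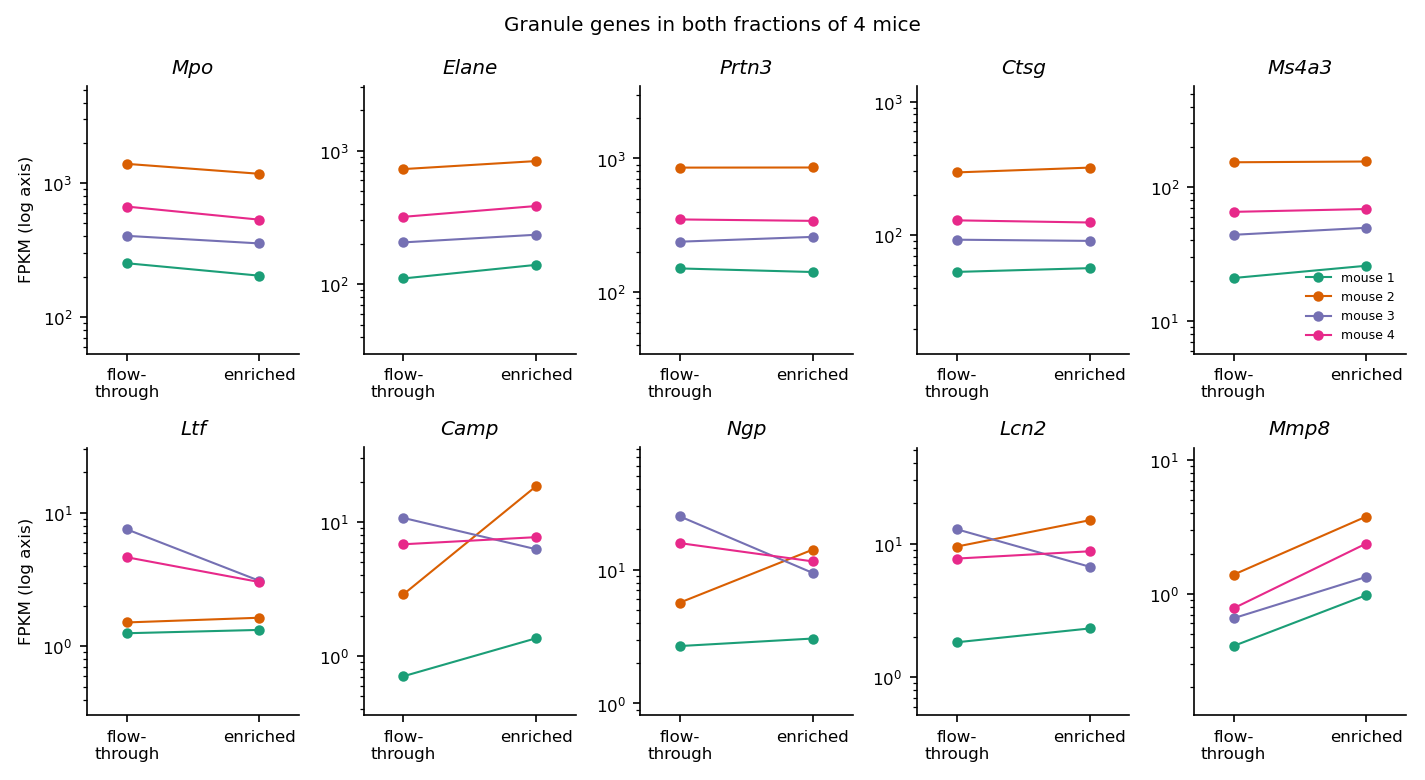
FPKM of each of the 10 genes (log axis, each panel spanning the same number of decades) in the flow-through and enriched libraries, with a line joining the 2 libraries of a mouse. Lines of the upper 5 genes are nearly level and never cross, those of *Camp*, *Ngp* and *Lcn2* cross for mice 2 and 3, and those of *Mmp8* all slope upward.

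To compare the fractions, all genes were tested with limma on log2(FPKM + 1). Without a mouse block, 0 of the 10 members passed in either direction, where 14.1% of all tested genes were called higher and 13.7% lower. At an unadjusted p under 0.05, 1 member, *Mmp8*, passed. All 10 members overlapped between the fractions, whereas 16.4% of genes lay wholly higher and 15.9% wholly lower in the enriched libraries. The median log2 fold change of the members was 0.04, against -0.02 for the whole table.

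A block for the mouse was then added. With this block, which compares libraries within each mouse, *Elane* and *Mmp8* were higher and *Mpo* was lower in the enriched fraction, while 22.2% of all genes were called higher and 22.7% lower. *Mpo* averaged 679.7 ± 507 FPKM in flow-through and 567 ± 428 FPKM in enriched libraries, a log2 fold change of -0.27 (SE 0.06 with the block, limma adjusted p = 0.014, against 0.78 without it), and was lower in 4 of 4 mice. *Elane* averaged 340.4 ± 271 and 398 ± 307 FPKM, a log2 fold change of 0.25 (SE 0.06 with the block, limma adjusted p = 0.017, against 0.80 without it), and was higher in 4 of 4 mice. Both of these blocked calls were lost without mouse 3 (limma adjusted p = 0.059 for *Mpo* and 0.072 for *Elane*) or without mouse 4 (0.070 and 0.074). Under T-cell scaling *Elane* turned to a log2 fold change of -0.090 and was not called, while *Mpo* was still lower with the block (-0.61, limma adjusted p = 0.034), and the median of all genes moved to -0.32.

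*Mmp8* averaged 0.808 ± 0.417 FPKM in flow-through and 2.12 ± 1.26 FPKM in enriched libraries. It passed the filter of a mean of 1 FPKM over all 8 libraries only through the enriched fraction, which limits its call. Its log2 fold change was 0.73, with a limma adjusted p of 0.094 without the block (SE 0.29) and 0.0070 with it (SE 0.14). The blocked call held without each mouse in turn, with limma adjusted p from 0.0086 to 0.035, and under T-cell scaling with the block (log2 fold change 0.57, limma adjusted p = 0.042). Without the enriched library of mouse 1, its lowest enriched value, the unblocked fit also called it, at a limma adjusted p of 0.049. With any other single library left out the unblocked fit did not call it, with limma adjusted p from 0.065 to 0.20.

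The other members were not called by either fit. *Prtn3* averaged 399 ± 315 and 399.8 ± 315 FPKM, and its log2 fold change of 0.00 had a 95% interval of -0.15 to 0.15 within mice. *Ctsg* had a log2 fold change of 0.03 with an interval of -0.12 to 0.18, and *Ms4a3* one of 0.14 with an interval of -0.03 to 0.30 and a higher value in 4 of 4 mice. For the secondary granule genes the within-mouse intervals were wide, from -0.84 to 0.12 for *Ltf*, -0.47 to 1.60 for *Camp*, -0.96 to 0.75 for *Ngp* and -0.48 to 0.56 for *Lcn2*. All 4 intervals included a fall of the size seen for *Mpo*, and all but that of *Ltf* included a rise of the size seen for *Elane*.

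**Figure D2:**
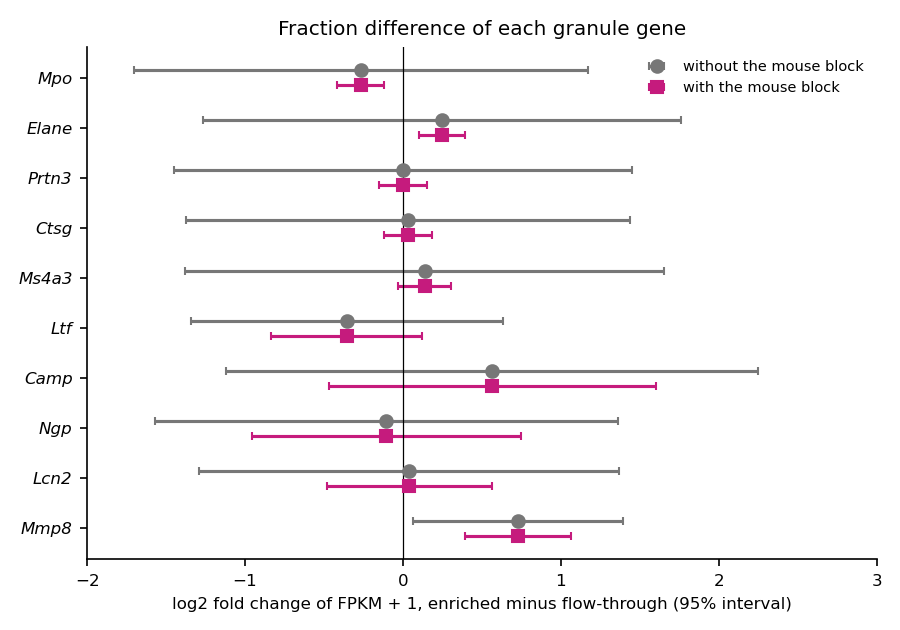
Log2 fold change of FPKM + 1 (enriched minus flow-through) of each member with its 95% interval from limma, without (gray circles) and with (magenta squares) the mouse block. With the block the intervals of *Mpo*, *Elane* and *Mmp8* exclude 0 and those of the 4 secondary granule genes stay wide.

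Since *Mpo* and *Elane* moved in opposite directions, members were also set against one another within each library, a ratio that no scaling of a library can change. The ratio of *Elane* to *Mpo* was 0.439, 0.521, 0.509 and 0.478 in flow-through libraries 1 to 4 and 0.686, 0.710, 0.662 and 0.721 in enriched libraries 1 to 4. The fractions did not overlap, and the log2 change was 0.52 (exact two-sided permutation p = 0.0286, the smallest that 4 libraries against 4 allow). That test shuffled all 8 libraries freely, and shuffling only within the 4 mice gave an exact p of 0.125, the smallest that 4 pairs allow. The pair was picked for its opposite directions in the same libraries, so neither p is independent support. *Prtn3*, *Ctsg* and *Ms4a3* relative to *Mpo* were likewise higher in every enriched than in every flow-through library, at 0.582 ± 0.039 and 0.699 ± 0.042, 0.211 ± 0.015 and 0.260 ± 0.020, and 0.1001 ± 0.013 and 0.132 ± 0.0059 (mean ± SD, n = 4). *Mpo* made up 43.9 ± 1.38% of the summed FPKM of the 4 primary granule genes in flow-through libraries and 37.7 ± 0.68% of it after enrichment.

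Relative to *Mmp8*, *Mpo* stood at 619, 1004, 615 and 858 in flow-through libraries and at 208, 311, 265 and 225 in enriched libraries. Relative to *Mmp8*, all 5 of *Mpo*, *Elane*, *Prtn3*, *Ctsg* and *Ms4a3* were lower in every enriched library than in every flow-through library, as were 13.6% of the 12165 tested genes other than *Mmp8*. Ratios among *Elane*, *Prtn3*, *Ctsg* and *Ms4a3* all overlapped between the fractions (exact permutation p from 0.057 to 0.54). In all, 9 of the 45 ratios among the 10 members did not overlap. Of these, 4 were between *Mpo* and another early gene and 5 with *Mmp8*, so they are not separate observations. As *Mmp8* passed the filter only through its enriched values, the 5 ratios with it carry that limit and give no support of their own. Each had the smallest possible exact p, and the Benjamini-Hochberg adjusted value over the 45 ratios was 0.143, so none passed the correction. Of 12165 other genes, 2.96% had a ratio to *Mpo* that was higher in every enriched library. This share is no like background. *Mpo* spanned 5.53 times between mice in the flow-through, and ratios of genes with another order of mice tend to overlap. Whether genes with the order of mice of *Mpo* shifted against it more often was not tested. The ratios were chosen after the values of *Mpo* and *Elane* had been seen.

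**Figure D3:**
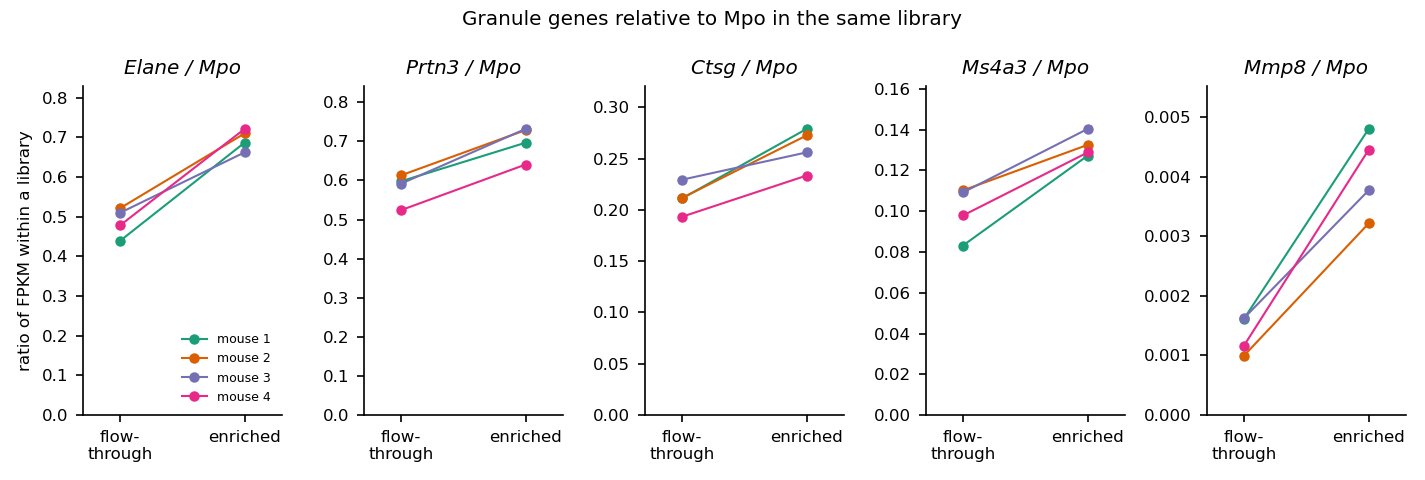
Ratio of the FPKM of *Elane*, *Prtn3*, *Ctsg*, *Ms4a3* and *Mmp8* to that of *Mpo* in the same library (linear axes from 0), by fraction, with a line joining the libraries of a mouse. Every line slopes upward, and in each panel all 4 enriched values lie above all 4 flow-through values.

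To compare the stages, the mean log2(FPKM + 1) of the 4 primary and of the 4 secondary granule genes was taken in each library, with no test. The primary mean was 6.95, 9.48, 7.70 and 8.30 in flow-through libraries and 6.95, 9.49, 7.72 and 8.26 in enriched libraries of mice 1 to 4, a difference between fractions of 0.01, 0.02, 0.02 and -0.04. The secondary mean was 1.33, 2.35, 3.78 and 3.17 in flow-through libraries and 1.55, 3.40, 2.81 and 3.02 in enriched libraries, a difference of 0.22, 1.05, -0.97 and -0.15. The mean of the early set differed little between the fractions of a mouse, with *Mpo* lower and *Elane* higher within it in every mouse. The later set was higher in the enriched library of mouse 2 and lower in that of mouse 3. Averaged over mice, primary minus secondary differed between the fractions by -0.03 on the log2 scale, and leaving out the flow-through library of mouse 2 or mouse 3 turned this to 0.53 or -0.54.

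Summed over the 4 genes, primary granule FPKM was 16.8 to 167 times the secondary sum in flow-through libraries and 36.8 to 67.2 times that sum after enrichment. The widest gap, 167, was in the flow-through of mouse 2 (3271 against 19.6 FPKM), and the narrowest, 16.8, in that of mouse 3 (941 against 56.1 FPKM). The enriched libraries of these 2 mice stood at 64.7 and 36.8. The 4 primary granule genes took 8.62, 45.96, 14.05 and 20.97 of every 10000 FPKM in flow-through libraries and 8.21, 45.5, 14.3 and 19.98 in enriched libraries.

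**Figure D4:**
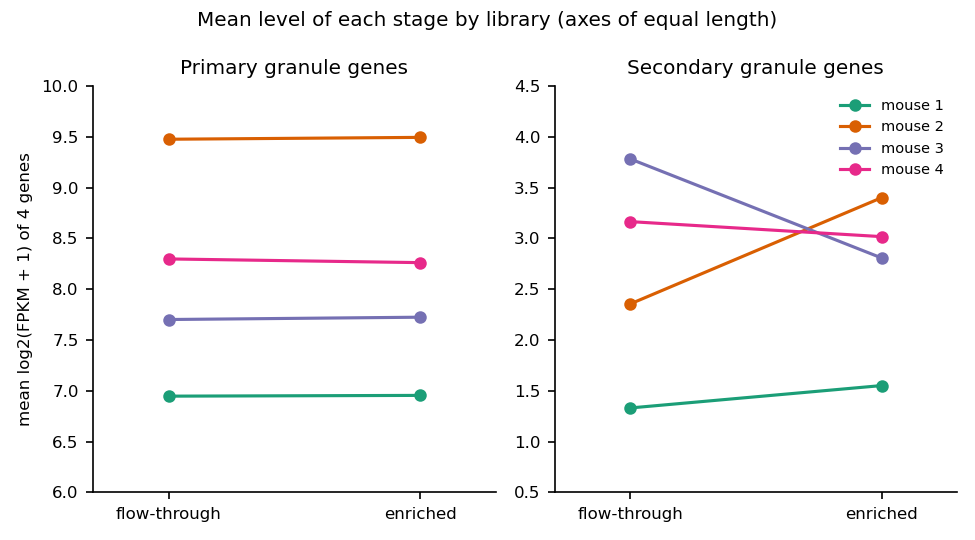
Mean log2(FPKM + 1) of the 4 primary (left) and 4 secondary (right) granule genes in each library, on axes of the same length, with a line joining the libraries of a mouse. The left lines are level and keep the order 2, 4, 3, 1, whereas on the right mouse 3 leads the flow-through and mouse 2 the enriched fraction.

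For the primary set the mice spanned a wider range than the fractions. The highest mouse exceeded the lowest by 5.53 to 6.57 times among the 4 primary granule genes of flow-through libraries and by 5.65 to 6.05 times among enriched libraries. On the log2 scale, the range of the mouse means was 2.46 to 2.64 for these genes, against a median of 0.33 over all genes tested, of which 0.584% reached 2.46. The difference between the fractions of a mouse had a median of 0.15 over the primary set, 0.50 over the secondary set and 0.27 over all genes.

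In the same blocked fit, an F test over the 4 mice was made after this pattern had been seen. The mice differed for 6 of 10 members, against 8.75% of all genes. These were the 4 primary granule genes (limma adjusted p from 0.00025 to 0.00026), *Ms4a3* (0.00029) and *Lcn2* (0.025), and the adjusted p was 0.056 for *Ltf*, 0.068 for *Mmp8*, 0.10 for *Ngp* and 0.12 for *Camp*. Under T-cell scaling 9 members passed, but no share of all genes is given for that setting, so this count has no background. There the limma adjusted p was 0.0069 for *Ngp*, 0.00087 for *Camp* and 0.017 for *Ltf*, and *Mmp8* was the member that did not pass. Each mouse stands here for 1 animal and 1 preparation, so the animal and its handling cannot be told apart.

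Across the 8 libraries, the 6 pairs among primary granule genes had Pearson r of 0.962 to 0.997 on the log2 scale, and *Ms4a3* had 0.972 to 0.995 with them. The 6 pairs among secondary granule genes had r of 0.52 to 0.91, and the 16 pairs between the sets -0.08 to 0.79. *Mmp8* had 0.60 to 0.78 with the primary and -0.22 to 0.64 with the secondary set. These values describe 8 libraries that share 4 mice. The genes most like the primary mean were *Cd63* (r = 0.995), *Dtx4* (0.995), *Gstm1* (0.991), *Ighg2b* (0.991) and *Papss2* (0.987). Those most like the secondary mean were *Zscan20* (0.978), *Ttll3* (0.968), *Zbtb49* (0.958), *Klf7* (0.922) and *Gm6654* (0.919).

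Other genes of the same granules were counted for comparison. Beside this and every list below, 14.1% of all tested genes were called higher and 13.7% lower without the block. With it these shares were 22.2% and 22.7%. Of 10 tested other primary granule genes, 3 were higher and 0 lower without the block, and 5 and 0 with it, with a median log2 fold change of 0.38. *Lyz2*, the lysozyme gene that monocytes also use, rose from 197 ± 108 to 506 ± 222 FPKM (log2 fold change 1.41, limma adjusted p = 0.034), *Srgn*, the granule proteoglycan, was at 435 ± 145 and 502 ± 89.1 FPKM, and *Gusb*, a lysosomal enzyme, was at 47.9 ± 2.66 and 44.8 ± 6.07 FPKM. Of 16 tested other secondary and tertiary granule genes, 6 were higher and 0 lower without the block, and 14 and 0 with it, with a median of 1.03. *Adam8*, a membrane protease, rose from 4.196 ± 1.45 to 20.02 ± 5.15 FPKM (log2 fold change 2.02, limma adjusted p = 0.0013), and *Itgb2*, the integrin β2 chain that T cells also carry, from 136 ± 30.2 to 246 ± 12.4 FPKM (limma adjusted p = 0.0062). Many of these genes are used by monocytes or lymphocytes too.

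Among 19 tested regulators and receptors of granulopoiesis, 1 was higher and 1 lower without the block, and 11 and 1 with it, with a median of 0.45. *Myb*, a factor of immature cells, fell from 82.9 ± 5.17 to 26.8 ± 5.23 FPKM (log2 fold change -1.61, limma adjusted p = 0.00029), and *Csf2rb*, a receptor chain for GM-CSF, was at 7.28 ± 3.62 and 12.99 ± 5.40 FPKM (limma adjusted p = 0.14, and 0.00069 with the block). *Cebpe*, the factor of the secondary granule stage and named here for that role, was at 0.766, 7.40, 3.08 and 3.43 FPKM in flow-through libraries 1 to 4 and at 1.49, 9.65, 2.82 and 4.17 FPKM in enriched libraries. Its order of mice in both fractions was that of the primary granule genes. Of 15 tested progenitor genes, 10 were lower and 1 higher (11 and 1 with the block). They ran from *Muc13* (19.8 ± 2.94 to 3.92 ± 0.55 FPKM, limma adjusted p = 0.00020) to *Flt3* (4.11 ± 2.001 to 10.3 ± 3.57 FPKM, limma adjusted p = 0.033). In all, 5 list genes were on 2 lists, so the counts of lists are not separate. Among them were *Ermap*, also an erythroid gene, and *Kit*, also a basophil and mast cell gene.

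Markers of other cells were counted in the same fits, beside the same shares of all genes. Of 10 mature neutrophil markers, 5 (*Ly6g*, *Cxcr2*, *Mmp9*, *Trem1* and *Fpr1*) were below a mean of 1 FPKM, with *Ly6g* at 0.447 FPKM at most. Of the other 5, 1 was higher and 0 lower without the block, and 3 and 0 with it. The list summed to 30.0 to 153 FPKM in flow-through libraries and 79.1 to 683 FPKM in enriched libraries. Mouse 2 was highest in both fractions. It also led for *Camp*, *Ngp* and *Lcn2* in the enriched libraries, but in the flow-through mouse 3 led for them, with a list sum of 141 FPKM. *S100a8*, a calcium-binding protein of neutrophils and monocytes, was at 11.6, 95.3, 66.4 and 53.6 FPKM in flow-through libraries and at 46.9, 408, 96.2 and 153 FPKM in enriched libraries. *Retnlg* was at 1.44 ± 0.80 and 0.93 ± 0.62 FPKM. The part of these cells in the values of the members was not tested.

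Of 5 tested monocyte and macrophage genes, 3 were higher and 0 lower (5 and 0 with the block), led by *Ccr2* (27.7 ± 13.2 to 66.4 ± 16.1 FPKM, limma adjusted p = 0.019), and the list of 8 summed to 29.8 to 84.7 FPKM in flow-through libraries and 80.0 to 145 FPKM in enriched libraries. Of 6 basophil and mast cell genes, 2 were higher and 1 lower (4 and 1 with the block), and the list summed to 120 to 290 FPKM in flow-through and 268 to 613 FPKM in enriched libraries, *Prss34* having risen and *Kit* having fallen. The 3 tested eosinophil genes, *Prg2* foremost, passed in neither direction (0 and 3 lower with the block), and the list summed to 97.9 to 441 FPKM and 78.3 to 311 FPKM, mouse 1 being lowest in both fractions. Of 8 erythroid genes, 4 were lower and 0 higher (7 and 0 with the block), *Car1* having fallen most, and their sum was 791 to 2142 FPKM in flow-through libraries and 126 to 511 FPKM in enriched libraries, with mouse 1 highest in both. Of 4 tested B-cell genes none passed (1 higher with the block), and of 8 CD8 T-cell genes none passed (1 higher with the block). In both fractions the monocyte and macrophage sum and the basophil and mast cell sum followed the order of mice of the primary granule genes. The eosinophil sum did so in flow-through libraries only, and the erythroid, B-cell and CD8 T-cell sums did not. What these cells contributed to the difference between mice in the primary granule genes was not tested.

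**Figure D5:**
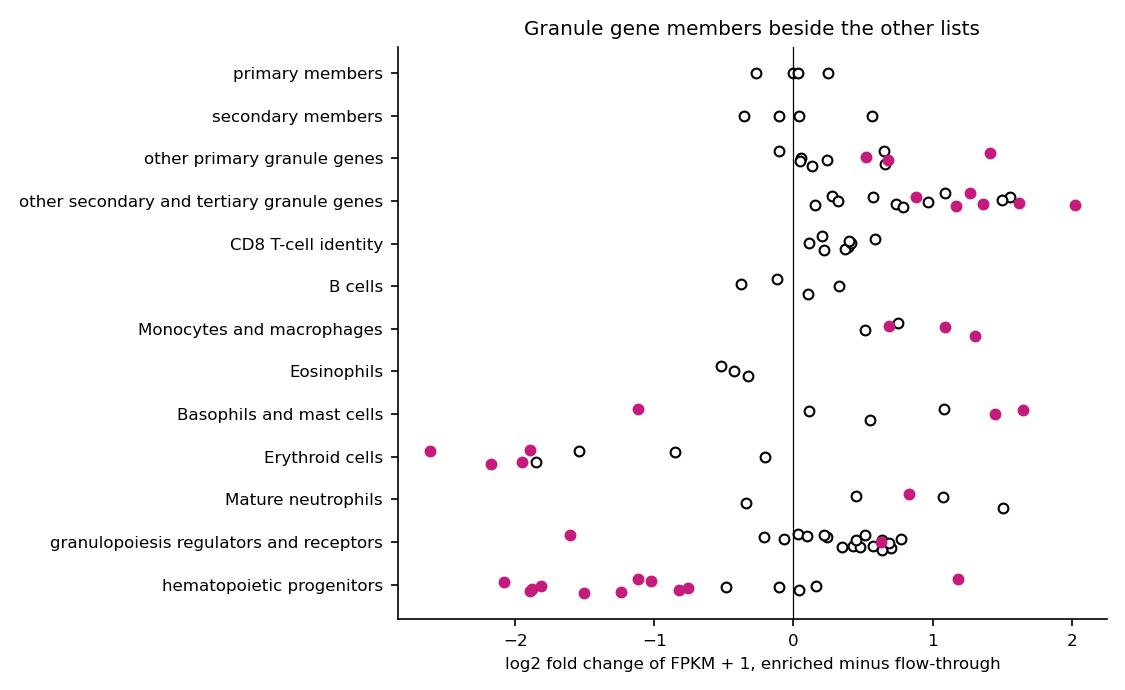
Log2 fold change of FPKM + 1 (enriched minus flow-through) of the members and of every tested gene of the other lists, 1 point per gene; filled magenta points passed limma at an adjusted p under 0.05 without the mouse block. No member is filled, and filled points lie to the right for other granule genes and to the left for erythroid genes and for all called progenitor genes but *Flt3*.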

How the data were processed

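The authors mapped stranded poly(A) reads of 150 bases to mm10 with TopHat and obtained gene expression from Cufflinks 2.1.1 (tool names from the submitters' notes and the study's methods). The deposited values are FPKM, which carry no exact depth, so depth was estimated from the values of low genes with 1 transcript and no count model was used. With Cufflinks defaults strand is not used, and overlapping genes are uncertain.

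Genes averaging 1 FPKM or more were tested with limma 3.58.1 (R 4.3.3, variance trend) on log2(FPKM + 1), two-sided, with Benjamini-Hochberg adjustment, on all 8 libraries without a block. Fold changes on this scale understate those of low genes. The titles number the libraries of each fraction from 1 to 4, and the number was taken as the mouse. Same-numbered libraries deviated together (r = 0.31 to 0.66 across genes, against -0.60 to 0.41 for different numbers), so the mouse block is given beside results. The members and gene lists were chosen with earlier results of these data known. All 10 members were named. A list gene could be named only as the tested gene with the highest mean, largest rise or largest fall of its list, and not all such genes are. *Cebpe*, the overlapping genes and the neutrophil markers of low level were named outside that rule, after their values had been seen. A list name found in 2 rows, *Itgam*, took the row with the higher mean, and 2 list genes were not analysed. The fit was tested on simulated data.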

Additional observations from a re-analysis of the deposited data

How the results depend on the processing

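Of 168 values of single members under other settings, 126 kept their direction and their side of the threshold, 12 passed the threshold in addition and 30 turned in sign, none of them past the threshold. The replicate block (the mouse) raised the calls to 2705 higher and 2763 lower genes and to 2 higher and 1 lower member. It stayed at 2 and 1 members with 0.1 FPKM added (2683 and 2749 genes) or with upper-quartile scaling (2819 and 2610 genes). T-cell scaling gave 522 higher and 927 lower genes, and with the block 630 higher and 2214 lower genes and 1 higher and 1 lower member. Scaling to the upper quartile turned *Prtn3* to 0.017. T-cell scaling turned *Elane* to -0.090, *Ctsg* to -0.30, *Ms4a3* to -0.19 and *Lcn2* to -0.22, with and without the block, while the median of all genes moved from -0.02 to -0.32. The cause was not tested.

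Leaving out single libraries moved the higher genes between 1124 and 1802 and the lower genes between 940 and 1781, lowest without the flow-through of mouse 3 or the enriched library of mouse 2 or 4. It moved the higher members between 0 and 1 and the log2 fold changes of *Mpo* between -0.72 and 0.18, *Elane* between -0.21 and 0.72, *Prtn3* between -0.47 and 0.47, *Ctsg* between -0.44 and 0.47, *Ms4a3* between -0.32 and 0.62, *Ltf* between -0.64 and 2.2e-05, *Camp* between 0.051 and 1.11, *Mmp8* between 0.49 and 0.92, *Ngp* between -0.59 and 0.35 and *Lcn2* between -0.44 and 0.46. Without a whole mouse, 5 to 8 members differed between mice, with 0.1 FPKM added 7, and under T-cell scaling 9. No share of all genes is given for these settings. The log2 change of the ratio of *Elane* to *Mpo* lay between 0.47 and 0.55 and that of *Mmp8* to *Mpo* between 1.47 and 1.71. Permuted within mice (the replicate block), these changes, 0.52 and 1.60, had the smallest exact p that 4 pairs allow, 0.125. With a mean of at least 5 FPKM, *Ltf* and *Mmp8* were not tested and the stages were not compared. Alternatives that join the block with a scaling or an added value, leave out whole mice or concern the ratios were chosen after the data had been seen. Few fragments limit *Camp* and *Mmp8*, and no depth is exact.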
